A study of Mus musculus with 20 samples.

Results

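Lin28a, Lin28b, Igf2bp1, Igf2bp2, Igf2bp3, Hmga2, Trim71, Mycn and Arid3a are genes of the oncofetal programme around the LIN28 proteins and the let-7 microRNAs. They were taken by name from the RNA count table, where all 9 were found among 23366 genes. RNA and small RNA had been sequenced from wild-type C57BL/6J mice at 5 stages: the whole testis of pups aged 1, 3 and 7 days, and cells purified from testes of adults aged 70 to 80 days. The adult cells were a mixed leptotene/zygotene fraction and a pachytene fraction, that is, spermatocytes early in meiosis and spermatocytes whose homologous chromosomes are paired. They were separated by size and density in a column at unit gravity, and per the labels' protocols their purity was judged under the microscope and no somatic cells were seen. Each stage and assay had 2 libraries, described as biological replicates; whether animals were pooled is not given in the sources used here, and the p-values measure the spread between these libraries.

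LIN28A and LIN28B are RNA-binding proteins that hold back the maturation of let-7 microRNA precursors. LIN28A also recruits terminal uridylyl transferases that tag the precursor for decay by the exonuclease DIS3L2. Mature let-7 binds sites in the messenger RNAs of Lin28a, Lin28b and the other genes described here and lowers their output, so that LIN28 and let-7 form a mutual switch in many embryonic cell types. In the postnatal mouse testis LIN28A is known as a protein of undifferentiated spermatogonia.

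The let-7 microRNAs are shown first because the small RNA table counts reads by the 7 bases of the seed, positions 2 to 8, and so adds up all microRNAs with one seed. The seed is in capitals, and the sequences are those of RefSeq on GRCm38.p6. In RefSeq the let-7 seed is shared by 11 mature names at 13 loci, among them let-7a to let-7g, let-7i, miR-98 and miR-1961.
let-7a-5p: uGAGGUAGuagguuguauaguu
let-7c-5p: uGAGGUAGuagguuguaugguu
let-7e-5p: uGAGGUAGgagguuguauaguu
let-7g-5p: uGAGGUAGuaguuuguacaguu
miR-98-5p: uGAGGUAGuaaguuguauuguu
miR-202-3p: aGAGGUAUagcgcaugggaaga
miR-125a-5p: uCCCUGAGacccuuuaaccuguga
miR-125b-5p: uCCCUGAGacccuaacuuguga
miR-99b-5p: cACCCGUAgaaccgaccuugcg
miR-100-5p: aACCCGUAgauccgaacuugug
The let-7 sequences share the seed and differ after it, so the table cannot tell them apart. The miR-202-3p seed, which RefSeq also gives for let-7j, differs from that of let-7 by G7U, counted from the first base of the seed. The miR-125 and miR-99/100 seeds are included because these families sit in clusters with let-7: let-7e-5p (chr17:17830366-17830387, plus strand) lies between miR-99b-5p (chr17:17830194-17830215, plus strand) and miR-125a-5p (chr17:17830817-17830840, plus strand). The miR-125 seed is shared by 5 mature names and that of miR-99/100 by 3.

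The RNA libraries held 3597360 to 22181395 counts assigned to genes, and 3 counts, taken as the floor of detection, came to 0.0999 to 1.46 CPM (counts over the TMM-scaled library size). The small RNA libraries held 112967 to 11061273 counts, with the floor at 0.350 to 15.9 CPM, and the 4 spermatocyte libraries were the shallowest of the 10. Replicates of the spermatocyte stages varied more than those of the testis stages: the SD of log2 CPM between replicates over all genes was 0.215 to 0.447 in testis, 0.83 in leptotene/zygotene and 0.685 in pachytene. Of the markers of 8 cell types looked at, none was at 0 in both libraries of a stage. The summed level of 6 spermatocyte markers was 507 to 964 CPM in leptotene/zygotene and 687 to 1100 CPM in pachytene. It was 18.4 to 85.2 CPM in the testis libraries. The sum in leptotene/zygotene rested largely on Syce1, at 539 CPM on average. Dmc1 alone of the 6 averaged less there than on day 7, at 7.31 against 9.996 CPM. The leptotene/zygotene libraries stood apart by 6 spermatid markers (protamines, transition proteins, Acrv1 and Spaca1), which summed to 41900 to 53300 CPM there, to 3720 to 5350 CPM in pachytene and to 1.1 to 26.4 CPM in testis. The name leptotene/zygotene is kept from the labels, though these marker levels go against a fraction of early spermatocytes alone. The changes of the members, seeds and list genes at leptotene/zygotene are also given with pachytene set against day 7, without the leptotene/zygotene libraries. That fit does not set spermatid RNA aside, as the 6 spermatid markers had a median log2 change of 12.1 in it.

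A gene was called higher or lower where edgeR's quasi-likelihood test gave a Benjamini-Hochberg adjusted p under 0.05 over all 16872 genes tested; all 9 members passed the filter on low counts. Changes are log2 fold changes ± SE of a fit to the 10 RNA libraries, with 2 libraries a stage. Between day 1 and day 3 none of the 9 members was called and none had an unadjusted p under 0.05, in a comparison that called 0% of genes (at an unadjusted p under 0.05 there were 1097 genes, and 79 were called by DESeq2). Between day 3 and day 7, 1 member was called higher and 1 lower, where 1.49% of genes were called. From day 1 to day 7, 1 was called higher and 2 lower, where 3.36% of genes were called. At leptotene/zygotene against day 7, 3 members were called higher and 5 lower, but 78.5% of genes were called there, so that 8 of 9 is near the background. The fit with pachytene set against day 7 called 78.6% of genes. At pachytene against leptotene/zygotene 1 member was called lower, where 22.2% of genes were called. The median change of the 9 members was -1.41 at leptotene/zygotene against day 7, beside -0.31 for all genes, and 0.49 from day 1 to day 7, beside 0 for all genes. The median of all genes at leptotene/zygotene against day 7 moved with the scaling, from -0.31 under TMM to 0.01 under median-ratio factors, -0.70 under upper-quartile factors and -1.71 with plain library sizes. The share of called genes that were higher was 46.5% under TMM and 29.6% with plain library sizes in that comparison, and 40.7% and 77.1% at pachytene against leptotene/zygotene.

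**Figure D1:**
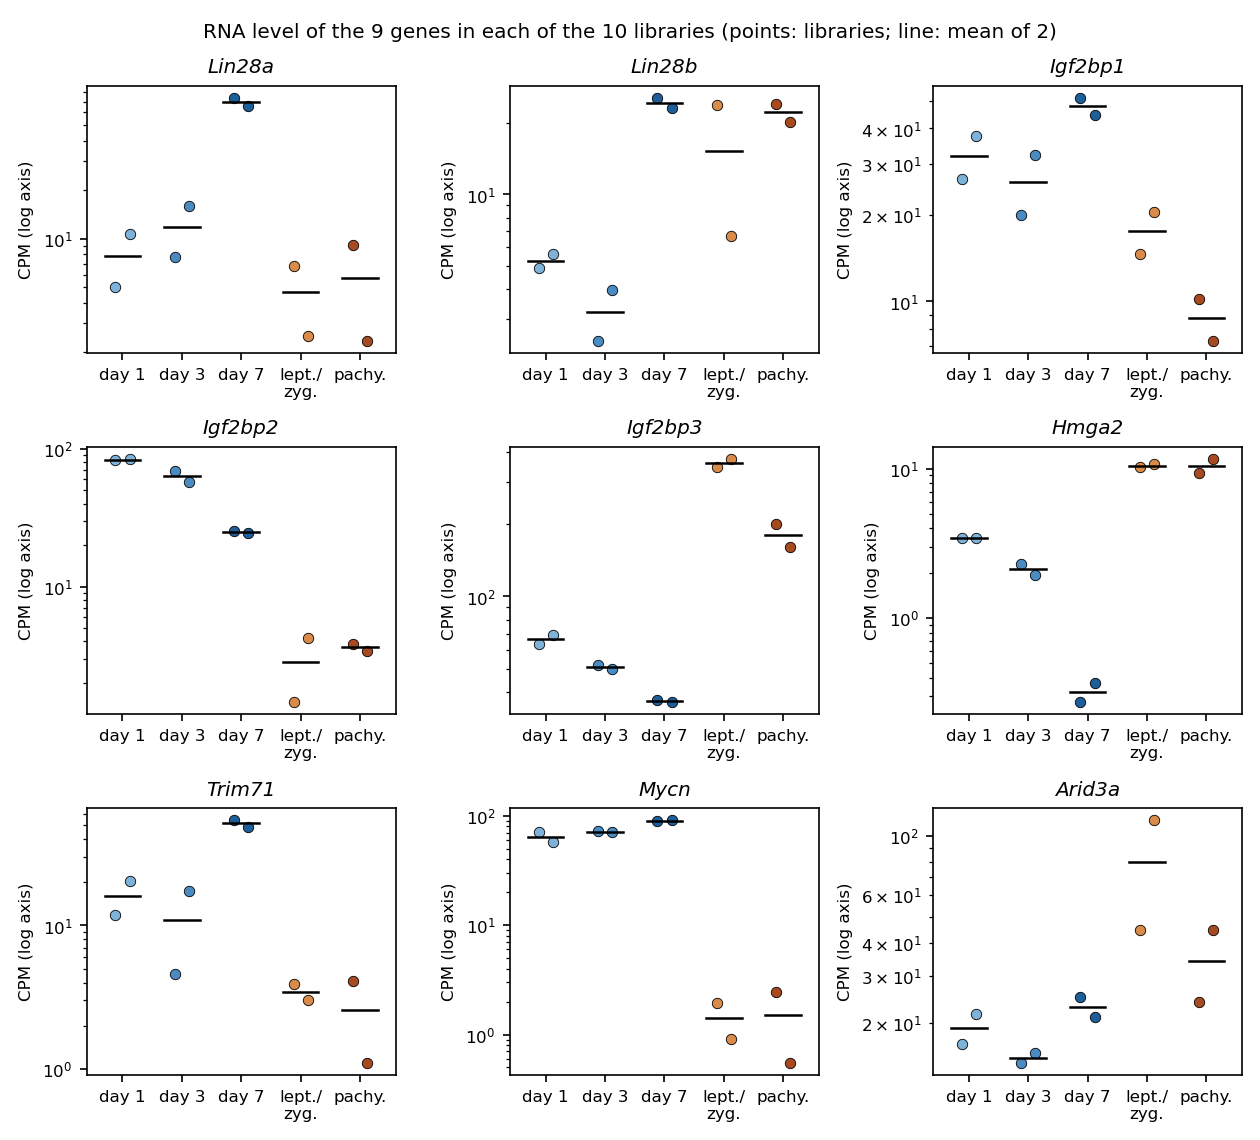
RNA level in CPM (log axis, its own range in each panel) of the 9 genes in the 10 RNA libraries by stage; points are libraries and the line is the mean of 2. Lin28a and Trim71 peak at day 7, Igf2bp3 and Hmga2 are highest in the spermatocyte fractions, and Mycn and Igf2bp2 are lowest there.

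Lin28a and Lin28b, the regulators of let-7, both stood higher on day 7 than in the younger testes. In leptotene/zygotene only Lin28a of the pair was called lower than on day 7, and whether their changes differ was not tested. Lin28a, on chromosome 4, was at 5.05 and 10.6 CPM at day 1, then 7.69 and 15.9 at day 3, 73.4 and 65.9 at day 7, 6.81 and 2.50 at leptotene/zygotene and finally 9.15 and 2.34 at pachytene (replicates 1 and 2 in turn). Both day 7 libraries lay above all the others, and each of the other stages overlapped its neighbours in the order of levels. Lin28b, on chromosome 10, was at 4.93 and 5.60 CPM at day 1, then 2.43 and 3.99 at day 3, 25.4 and 23.1 at day 7, 23.8 and 6.71 at leptotene/zygotene and finally 24.0 and 20.2 at pachytene. Its day 7 and pachytene libraries overlapped, while leptotene/zygotene replicate 2 lay well under replicate 1 and all the testis libraries of days 1 and 3 lay lower still.

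Lin28a was 3.14 ± 0.65 higher on day 7 than on day 1 (adjusted p = 0.0362), an 8.80-fold difference, and this was its only call among the testis comparisons. Against day 3 its difference was 2.58 ± 0.63 (adjusted p = 0.0814). Lin28b was 2.94 ± 0.53 higher on day 7 than on day 3 (adjusted p = 0.0345), 7.67-fold, and its difference from day 1 was 2.20 ± 0.52 (adjusted p = 0.0526). These calls are close to the threshold. Lin28a lost its call against day 1 without day 1 replicate 1 (2.63, adjusted p = 0.255), day 1 replicate 2 (3.77, adjusted p = 0.181), day 7 replicate 1 (adjusted p = 0.267) or day 7 replicate 2 (adjusted p = 0.21), and under upper-quartile factors (adjusted p = 0.0506). Lin28b lost its call against day 3 without day 1 replicate 1 or replicate 2 (adjusted p = 0.106 each), day 3 replicate 1 (0.247) or replicate 2 (0.0898), day 7 replicate 1 (0.332) or replicate 2 (0.267), and under upper-quartile factors (0.062). The differences of Lin28a from day 3 and of Lin28b from day 1 were called in the fit without the leptotene/zygotene libraries (adjusted p = 0.0384 and 0.00738), by DESeq2 (0.0141 and 0.00782), without the filter (0.0257 and 0.0183) and with only the stages compared (0.0247 and 2.46e-06).

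Some germ cell markers, of undifferentiated cells and of spermatocytes, were also higher on day 7. The summed level of 10 markers of undifferentiated germ cells was 173 to 274 CPM on day 1, 188 to 248 on day 3 and 725 to 817 on day 7, and 2 of the 10 (Ddx4 and Uchl1) were called higher at day 7 against day 3 and 3 (these and Nanos3) at day 7 against day 1. The members did not move alike: Etv5 was at 32.5, 35.1 and 33.5 CPM on average at days 1, 3 and 7, and Ddx4 is no marker of undifferentiated cells alone, at 927 CPM in leptotene/zygotene. The 6 spermatocyte markers summed to 20.4 to 30.4 CPM on day 1, 18.4 to 21.1 on day 3 and 78.2 to 85.2 on day 7, and 2 of 6 were called higher in each of these comparisons. Of all genes, 0.931% were called higher at day 7 against day 3 and 1.08% at day 7 against day 1. The part of these markers' cells in the rises of Lin28a and Lin28b was not tested. Fewer cells of a type and less RNA per cell cannot be told apart in these bulk samples, nor can more of either. Set against Ddx4, the germ cell RNA helicase, Lin28a was at 20.5 and 23.7 counts per 100 Ddx4 counts at day 1, then 34.5 and 48.3 at day 3 and finally 67.6 and 68.1 at day 7. The ratio of Lin28a to Ddx4 thus stood higher on day 7 than on day 1 in both libraries, with no overlap between the 3 ages. Lin28b was at 20 and 12.5 counts per 100 Ddx4 counts at day 1, then 10.9 and 12.1 at day 3 and finally 23.4 and 23.9 at day 7, so that day 7 lay above both younger ages. Every spermatocyte library had lower ratios than these, from 0.238 to 0.976 for Lin28a and from 0.637 to 2.98 for Lin28b. Ddx4 itself averaged 103 CPM on day 7, against 927 CPM for leptotene/zygotene. These ratios are of counts within a library, free of its scaling but not divided by transcript length, and they were not tested.

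In leptotene/zygotene cells Lin28a was 4.14 ± 0.74 lower than in day 7 testis (adjusted p = 0.000543), 8 of 9 members being called there; without leptotene/zygotene replicate 1 the change was -4.80 and without replicate 2 it was -3.37, both called. Of the 10 markers of undifferentiated germ cells, 7 were called lower in the same comparison and 1, Ddx4, higher. Of all genes, 78.5% were called there, and 42% were called lower. The part of these markers' cells in the fall of Lin28a was not tested. Lin28b was not called: its change was -0.78 ± 0.51 (adjusted p = 0.185), but without leptotene/zygotene replicate 1 it was -1.86 and called (adjusted p = 0.00159), and with plain library sizes it was -2.12 and called (adjusted p = 0.00595). With pachytene set against day 7, Lin28a changed by -3.64 ± 0.62 (adjusted p = 0.000498) and Lin28b changed by -0.11 ± 0.28 (adjusted p = 0.734). Neither gene was called between leptotene/zygotene and pachytene, though Lin28b was called higher there without leptotene/zygotene replicate 1 (1.71, adjusted p = 0.0117). The ratio of Lin28a to Lin28b counts was 103 and 189 per 100 at day 1, then 316 and 398 at day 3, 290 and 285 at day 7, 28.6 and 37.3 at leptotene/zygotene and finally 38.1 and 11.6 at pachytene. Every testis library thus held more Lin28a than Lin28b reads and every spermatocyte library fewer; whether the genes' changes differ was not tested.

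**Figure D2:**
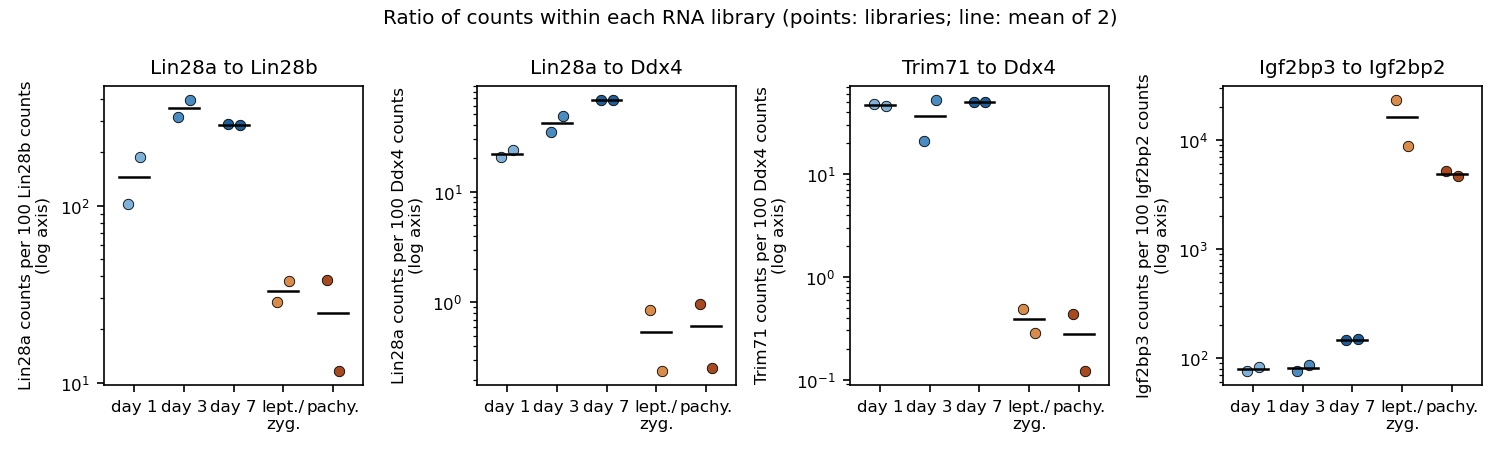
Ratio of counts within each RNA library, per 100 counts of the second gene, on log axes by stage; points are libraries and the line is the mean of 2. Lin28a to Lin28b is at 102.5 or more in the 6 testis libraries and at 38.1 or less in the 4 spermatocyte libraries, and Igf2bp3 to Igf2bp2 is at 4660 or more in the latter.

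The promoters of both Lin28 genes are shown because the genes stood high together on day 7, while only Lin28a was called lower in leptotene/zygotene. Each is the 250 bases before 1 annotated start of RefSeq on GRCm38.p6, on the minus strand; for Lin28a and Lin28b that start lies inside the gene's RefSeq span, so other starts exist and the windows need not be the promoters used here. They are printed with any CACGTG in capitals; this is the E-box bound by MYC family proteins such as MYCN, read the same on both strands.
Lin28a, chr4:134018817-134019066: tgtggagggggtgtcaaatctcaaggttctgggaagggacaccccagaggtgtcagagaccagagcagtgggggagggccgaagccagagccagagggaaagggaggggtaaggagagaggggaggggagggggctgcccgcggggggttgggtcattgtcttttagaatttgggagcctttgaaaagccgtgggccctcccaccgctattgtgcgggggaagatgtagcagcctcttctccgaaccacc
Lin28b, chr10:45470202-45470451: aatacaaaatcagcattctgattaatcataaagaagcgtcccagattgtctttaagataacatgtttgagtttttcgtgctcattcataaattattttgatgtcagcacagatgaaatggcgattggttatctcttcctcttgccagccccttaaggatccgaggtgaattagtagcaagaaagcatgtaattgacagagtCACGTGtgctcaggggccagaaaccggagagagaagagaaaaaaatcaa
Of the 9 members, 7 had a promoter in the table. CACGTG was found once in the Lin28b and once in the Igf2bp3 window and in none of the other 5; 6.02% of 32851 promoters of the same length hold it. The GC box GGGCGG, searched on both strands, was found in Igf2bp2, Hmga2, Trim71 and Mycn (32.7% of promoters), and CCAAT in Lin28b and Igf2bp3 (33.8%). TATAAA was in none of the 7 (12.4% of promoters). The Igf2bp2 window was the richest in CpG of the 7, with 40 of these dinucleotides, then Igf2bp3 with 21 and Trim71 with 17; Lin28a had 7 and Lin28b 6, beside a median of 6 over all promoters.

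The IGF2BP proteins bind and stabilise messenger RNAs, among them those of growth genes, and IGF2BP1 and IGF2BP3 are fetal in most tissues. The 3 paralogues took different courses: Igf2bp2 was called lower on day 7 than on day 1 and lower again in leptotene/zygotene, Igf2bp1 was called lower in leptotene/zygotene, and Igf2bp3 was called higher there and lower again in pachytene. Igf2bp1, on chromosome 11, was at 26.7 and 37.6 CPM at day 1, then 20.0 and 32.2 at day 3, 51.0 and 44.6 at day 7, 14.6 and 20.5 at leptotene/zygotene and finally 10.2 and 7.29 at pachytene. Both day 7 libraries were the highest of the 10, days 1 and 3 overlapped, and so did day 3 and leptotene/zygotene. Igf2bp2, on chromosome 16, was at 82.9 and 84.2 CPM at day 1, then 69.1 and 57.2 at day 3, 25.4 and 24.4 at day 7, 1.46 and 4.21 at leptotene/zygotene and finally 3.86 and 3.44 at pachytene. Its testis stages did not overlap and stood in order of age, whereas the spermatocyte stages overlapped. Igf2bp3, on chromosome 6, was at 63.7 and 69.1 CPM at day 1, then 52.1 and 49.8 at day 3, 37.1 and 36.5 at day 7, 345 and 372 at leptotene/zygotene and finally 200.5 and 160.3 at pachytene. No stages of Igf2bp3 overlapped.

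From day 1 to day 7 Igf2bp2 was lower by 1.75 ± 0.30 (log2 change -1.75, adjusted p = 0.0229), a 3.35-fold fall. The call was lost without day 1 replicate 1 (adjusted p = 0.138) or replicate 2 (0.151), or without day 7 replicate 1 (0.232) or replicate 2 (0.212). Igf2bp3 changed by -0.85 ± 0.22 over the same days (adjusted p = 0.0662) and Igf2bp1 by 0.57 ± 0.33 (adjusted p = 0.418). Igf2bp3 was called there by DESeq2 (adjusted p = 5.85e-05), with median-ratio factors (0.0433) and in the fit without the leptotene/zygotene libraries (0.0342), and both were called with only these stages fitted (2.94e-05 and 0.0113). Markers of Leydig and endothelial cells moved in the same direction as Igf2bp2: summed levels were 864 to 1020 CPM on day 1 and 366 to 548 on day 7 for 6 Leydig markers, and 409 to 433 and 191 to 194 CPM for 4 endothelial markers, of which 1 Leydig and no endothelial marker was called lower. Of all genes, 2.28% were called lower over these days. The part of these markers' cells in the fall of Igf2bp2 was not tested. Per 100 Ddx4 counts, Igf2bp1 was at 108.5 and 83.9 at day 1, then 89.7 and 98.02 at day 3 and finally 47.0 and 46.1 at day 7, so that among the 3 testis ages its ratio to Ddx4 was lowest on day 7 while its CPM was highest. Both spermatocyte stages had a lower ratio still, with 1.82 and 1.95 in the leptotene/zygotene libraries, against 1.08 and 0.794 for pachytene.

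In leptotene/zygotene against day 7, Igf2bp3 rose by 3.29 ± 0.24 (adjusted p = 1.61e-06), a 9.75-fold difference. Igf2bp2 fell by 2.89 ± 0.36 (adjusted p = 4.89e-05) and Igf2bp1 by 1.41 ± 0.34 (adjusted p = 0.0035). Without leptotene/zygotene replicate 2 the change of Igf2bp2 was -4.10, since replicate 1 held 3 of its counts. With plain library sizes all 9 members kept their direction in this comparison, with changes such as 1.90 for Igf2bp3, -5.38 for Trim71 and -7.72 for Mycn. With pachytene set against day 7 all 3 Igf2bp genes kept their direction and their call, at 2.32 for Igf2bp3, -2.75 for Igf2bp2 and -2.44 for Igf2bp1. Igf2bp3 then fell by 0.99 ± 0.22 from leptotene/zygotene to pachytene (adjusted p = 0.0122), 1.99-fold. That call was lost without day 7 replicate 1 (adjusted p = 0.0524), day 7 replicate 2 (0.0521) or pachytene replicate 2 (0.057), with only these stages fitted (-0.86, 0.108) and with plain library sizes (-0.44, 0.135). Igf2bp1 changed by -1.05 ± 0.36 in the same comparison (adjusted p = 0.0625).

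The ratio of Igf2bp3 to Igf2bp2 counts was 75.5 to 87.1 per 100 in the day 1 and day 3 libraries, then 146 and 149.6 at day 7, 23630 and 8852 at leptotene/zygotene and finally 5189 and 4660 at pachytene. Per 100 Ddx4 counts, Igf2bp3 was at 258.5 and 154 at day 1, then 234.1 and 151.5 at day 3, 34.2 and 37.7 at day 7, 43.1 and 35.3 at leptotene/zygotene and finally 21.4 and 17.5 at pachytene. Day 7 and leptotene/zygotene thus overlapped in this ratio, although the CPM of Igf2bp3 differed 9.75-fold; Ddx4 itself was 3.17 ± 0.36 higher in leptotene/zygotene (adjusted p = 2.62e-05). Most somatic markers were called lower in these cells, where 42% of all genes were called lower. These were 8 of 8 Sertoli, 6 of 6 Leydig, 4 of 4 peritubular, 3 of 4 endothelial and 3 of 4 macrophage markers. Summed levels were 30.2 to 72.4 CPM for Sertoli markers against 2170 to 2300 on day 7. The macrophage marker Emr1 averaged 5.89 CPM against 6.08 on day 7. The 6 spermatid markers were all called higher, and their summed level was lower in pachytene, where 3 of 6 were called lower than in leptotene/zygotene. Of all genes, 36.5% were called higher in leptotene/zygotene than on day 7, and 13.2% lower in pachytene than in leptotene/zygotene. Of the 6 spermatocyte markers, 4 were called higher in leptotene/zygotene than on day 7 and 0 lower. With pachytene set against day 7, 5 were called higher and Dmc1 lower (-1.53 ± 0.44, adjusted p = 0.00973). The 6 spermatid markers were all called higher in that fit too, where 78.6% of all genes were called. The part of these cell types in the changes of the 9 members was not tested.

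**Figure D3:**
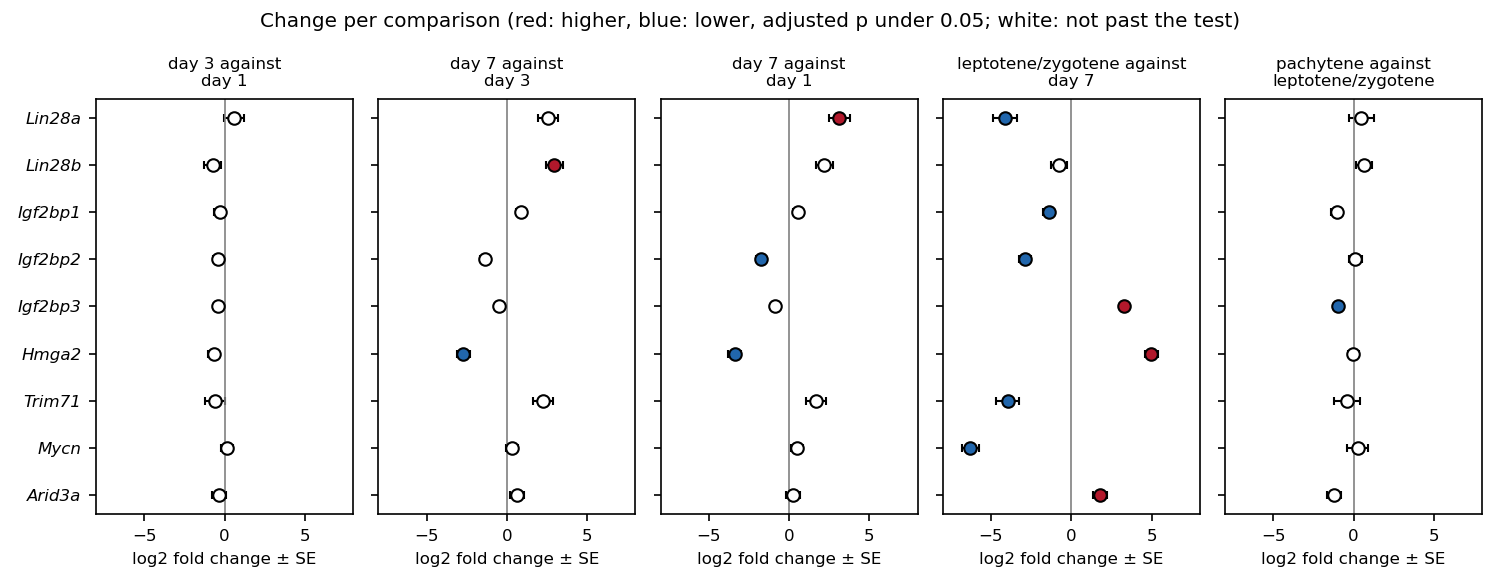
Log2 fold change ± SE of each gene in the 5 comparisons, from edgeR's fit to 10 RNA libraries; red is called higher, blue lower (adjusted p under 0.05) and white not called. No gene is coloured at day 3 against day 1, and 8 of 9 are coloured at leptotene/zygotene against day 7, where Lin28b alone is white.

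Hmga2, an architectural chromatin protein of embryonic cells and a classic let-7 target, ran opposite to Lin28a. On chromosome 10, it was at 3.45 CPM in both day 1 libraries, then 2.30 and 1.95 at day 3, 0.276 and 0.368 at day 7, 10.2 and 10.7 at leptotene/zygotene and finally 9.35 and 11.6 at pachytene. The day 7 values rest on 5 and 6 counts, and no testis stage overlapped another, while the spermatocyte stages did. Hmga2 fell by 2.70 ± 0.40 from day 3 to day 7 (adjusted p = 0.0176), and its change from day 1 to day 7 was -3.39 ± 0.40 (adjusted p = 0.00674), a 10.5-fold difference. The first call was lost without day 1 replicate 2 (adjusted p = 0.0502), day 3 replicate 1 (0.0716), day 7 replicate 1 (0.29) or day 7 replicate 2 (0.225). The second was lost without day 1 replicate 1 (0.0625) or replicate 2 (0.0724), or day 7 replicate 1 (0.145) or replicate 2 (0.117). Hmga2 was then 4.99 ± 0.40 higher in leptotene/zygotene than on day 7 (adjusted p = 2.95e-06), 31.8-fold, and 5.02 ± 0.40 higher in pachytene than on day 7 (adjusted p = 4.66e-06). It averaged 10.5 CPM in both spermatocyte stages, with a change of -0.002 ± 0.32 between them (adjusted p = 1).

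Trim71, a ubiquitin ligase and RNA-binding protein of stem cells that is also a let-7 target, followed a course like that of Lin28a. On chromosome 9, it was at 11.8 and 20.4 CPM at day 1, then 4.59 and 17.3 at day 3, 54.3 and 48.8 at day 7, 3.89 and 3.00 at leptotene/zygotene and finally 4.07 and 1.10 at pachytene. Its day 7 libraries were the highest, days 1 and 3 overlapped, and so did the spermatocyte stages. The differences of day 7 from day 3 (2.26 ± 0.62, adjusted p = 0.116) and from day 1 (1.67 ± 0.61, adjusted p = 0.169) were not called. The first was called by DESeq2 (adjusted p = 0.0367) and without the filter (0.0479), and the second with only these stages fitted (4.92e-05). Trim71 fell by 3.97 ± 0.74 at leptotene/zygotene (adjusted p = 0.000711), and by 4.38 ± 0.75 in pachytene against day 7 (adjusted p = 0.000519). Per 100 Ddx4 counts Trim71 was at 48 and 45.4 at day 1, then 20.6 and 52.7 at day 3. At day 7 it was at 50.0 and 50.4. Unlike the ratio of Lin28a, that of Trim71 overlapped between day 3 and its neighbours, and this difference was not tested. The spermatocyte libraries had lower Trim71 ratios, from 0.12 to 0.486.

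Mycn, a MYC family transcription factor of dividing progenitor cells, was at 57.8 CPM or more in every testis library and at 2.44 CPM or less in every spermatocyte library. On chromosome 12, it was at 71.2 and 57.8 CPM at day 1, then 72.8 and 70.7 at day 3, 89.9 and 91.3 at day 7, 1.94 and 0.901 at leptotene/zygotene and finally 2.44 and 0.550 at pachytene. The spermatocyte values rest on 4 to 12 counts a library, and the stages overlapped. No testis comparison was called (log2 changes of 0.16 to 0.49), except day 7 against day 1 with only these stages fitted (0.48 ± 0.10, adjusted p = 0.00281). The fall at leptotene/zygotene of 6.29 ± 0.55 (adjusted p = 5.01e-06) was the largest change of any member in the 5 comparisons. Without leptotene/zygotene replicate 2 it was -5.555 and still called, and against pachytene the change from day 7 was -6.02 ± 0.44 (adjusted p = 2.8e-06).

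Arid3a, a DNA-binding transcription factor whose transcript let-7 is known to repress, was at 16.8 and 21.6 CPM at day 1, then 14.2 and 15.5 at day 3, 25.0 and 21.1 at day 7, 44.7 and 114 at leptotene/zygotene and finally 24.0 and 44.6 at pachytene; it lies on chromosome 10. Day 7 and pachytene overlapped, and leptotene/zygotene replicate 2 stood above all other libraries. Its rise of 1.81 ± 0.44 at leptotene/zygotene against day 7 (adjusted p = 0.00366) rests on that library and on the scaling. Without leptotene/zygotene replicate 2 the change was 0.94 (adjusted p = 0.0548), with plain library sizes 0.38 (0.394), and with pachytene against day 7 it was 0.61 ± 0.31 (0.0961).

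The let-7 seed was the counterpart measured in the small RNA libraries. Its counts were 57530 and 47966 CPM at day 1, then 42004 and 44851 at day 3, 64142 and 56184 at day 7, 20752 and 12557 at leptotene/zygotene and finally 13795 and 12122 at pachytene. Days 1 and 7 overlapped, day 3 lay somewhat lower, and every spermatocyte library lay under every testis library. Of 745 seeds tested, 0% were called at day 3 against day 1 (at an unadjusted p under 0.05 there were 144, and 83 were called by DESeq2), 4.16% at day 7 against day 3, 14% at day 7 against day 1, 62.1% at leptotene/zygotene against day 7 and 0.403% at pachytene against leptotene/zygotene. The let-7 seed was called in 1 of the 5, at -1.85 ± 0.40 for leptotene/zygotene against day 7 (adjusted p = 0.00244, edgeR's quasi-likelihood test), where the median seed changed by -0.91. It was 3.61-fold lower there, with a change of -1.07 under upper-quartile factors that was still called (adjusted p = 0.0108), and 2.21 ± 0.33 lower (log2 change -2.21, adjusted p = 0.000288) in pachytene against day 7. The change from day 3 to day 7, when Lin28b was called higher, was 0.47 ± 0.39 (adjusted p = 0.577), and from day 1 to day 7, when Lin28a was called higher, 0.19 ± 0.39 (adjusted p = 0.797). The latter had the opposite sign under median-ratio factors (-0.20) and was not called there. Thus Lin28a and the let-7 seed were both lower in leptotene/zygotene than on day 7, and in no testis comparison was the let-7 seed called, which does not show that its level was the same.

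The miR-125 seed was at 23423 and 23950 CPM at day 1, then 40790 and 44682 at day 3, 32581 and 31404 at day 7, 3160 and 1562 at leptotene/zygotene and finally 4989 and 2057 at pachytene. That of miR-99/100 was at 27378 and 20058 CPM at day 1, then 41593 and 83244 at day 3, 28317 and 23613 at day 7, 6591 and 1771 at leptotene/zygotene and finally 6134 and 5300.5 at pachytene. Both were lower in leptotene/zygotene than on day 7, by 3.76 ± 0.55 (log2 change -3.76, adjusted p = 0.000206) and by 2.63 ± 0.61 (log2 change -2.63, adjusted p = 0.00336), and neither was called in the other 4 comparisons. With other settings miR-99/100 was called at day 3 against day 1 (DESeq2, adjusted p = 0.039; no filter, 0.0473) and at day 7 against day 3 (DESeq2, 0.00746; median-ratio factors, 0.0485; without small RNA leptotene/zygotene replicate 1, 0.0401), and miR-125 at day 7 against day 1 with only these stages fitted (0.0149). The miR-202-3p seed was far rarer, at 134 to 223 CPM in the testis libraries, with 33 and 0 counts for leptotene/zygotene and only 12 and 4 for pachytene. The count of 0 had an upper 95% limit of 18.4 CPM for counting error. The miR-202-3p seed was also called lower at leptotene/zygotene (-2.86 ± 0.68, adjusted p = 0.00404), and the 4 seeds all kept this call when any 1 library was left out. Without leptotene/zygotene replicate 1 the miR-202-3p change was fitted at -12.39 from the library with 0 counts, a value that depends on how a count of 0 is treated. With pachytene set against day 7, 53.7% of seeds were called. The changes there were -3.17 ± 0.45 for miR-125, -2.18 ± 0.41 for miR-99/100 and -2.86 ± 0.39 for miR-202-3p, all called (adjusted p = 0.000233, 0.00141 and 0.000174). Under upper-quartile factors the change of miR-125 was -3.03, and without the filter that of miR-99/100 was -3.23 and that of miR-202-3p -3.49, all still called.

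**Figure D4:**
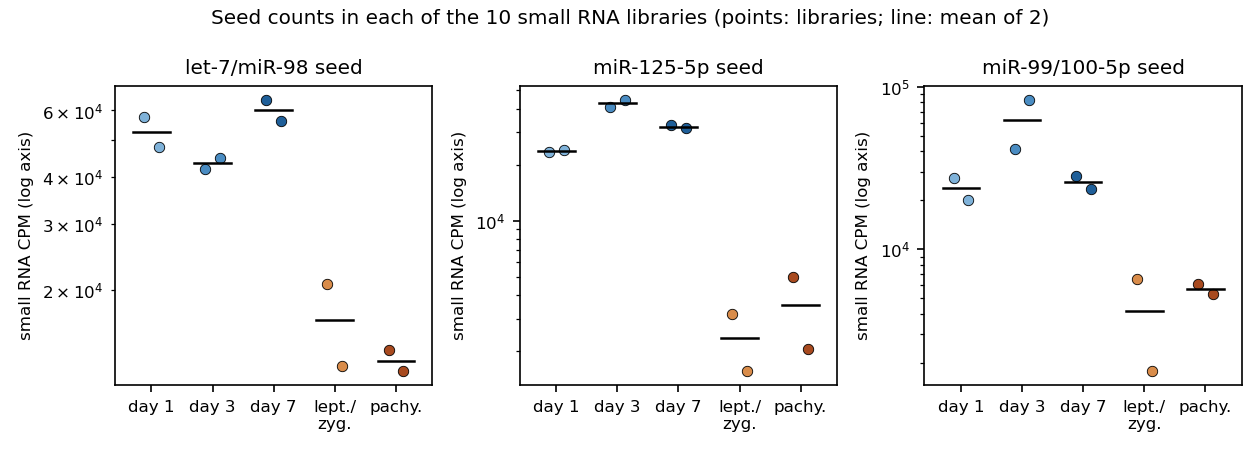
Small RNA CPM (log axis) of the let-7/miR-98, miR-125-5p and miR-99/100-5p seeds in the 10 small RNA libraries by stage; points are libraries and the line is the mean of 2. All 4 spermatocyte libraries lie under the 6 testis libraries for each seed.

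Other genes of the let-7 pathway were followed as a list of 12 genes that make, tag or degrade let-7 or bind its precursors. None was called in the 3 testis comparisons. At leptotene/zygotene against day 7, 2 were called higher and 8 lower, where 78.5% of all genes were called. Their median change was -1.51, beside -0.31 for all genes. Dicer1, which cuts the precursor, fell by 3.41 ± 0.62 (adjusted p = 0.000585), from 153.9 ± 0.75 to 15.6 ± 10.2 CPM (SD, n = 2 libraries). Trim25, an RNA-binding ubiquitin ligase, fell by 4.13 ± 0.76 (adjusted p = 0.000684), and Hnrnpa1, which binds let-7 precursors, by 3.94 ± 0.57 (adjusted p = 0.00013); Hnrnpa1 has near-identical copies in the genome, so its counts are uncertain. Dis3l2, the exonuclease that degrades tagged precursors, rose by 2.06 ± 0.32 (adjusted p = 0.000228), from 22.9 ± 0.11 to 94.3 ± 43.3 CPM. From leptotene/zygotene to pachytene Dis3l2 fell by 1.03 ± 0.32 (adjusted p = 0.0437) and Khsrp, a binding protein that promotes let-7 processing, rose by 1.01 ± 0.23 (adjusted p = 0.0151). With pachytene set against day 7, 2 of the 12 were called higher and 7 lower, where 78.6% of all genes were called. The changes were -3.15 for Dicer1, -3.68 for Trim25, -5.39 for Hnrnpa1 and 1.06 for Dis3l2, all called.

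A further list held 24 other known let-7 targets. None was called at day 3 against day 1 or day 7 against day 1. Prtg, a cell surface receptor of early embryos, was the only one called at day 7 against day 3, at 2.91 ± 0.41 (adjusted p = 0.0164). At leptotene/zygotene against day 7, 6 were called higher and 13 lower, with a median of -1.73. Among those with a higher mean were Nr6a1, from 34.5 to 718 CPM, and Arid3b, from 39.8 to 259 CPM. Ccnd2, a D-type cyclin, fell by 6.23 ± 0.91 (adjusted p = 0.000143), from 492 to 8.29 CPM, and the changes of Mycl1, a MYC family gene, and Prtg were -4.91 ± 0.76 (adjusted p = 0.000207) and -4.44 ± 0.54 (adjusted p = 4.15e-05). With pachytene set against day 7, 5 of the 24 were called higher and 13 lower, where 78.6% of all genes were called. The changes were -6.45 for Ccnd2, -4.50 for Mycl1, -5.47 for Prtg, 3.35 for Nr6a1 and 2.31 for Arid3b, all called. From leptotene/zygotene to pachytene 2 were called higher and 5 lower, among the latter Cdc34, a ubiquitin-conjugating enzyme (-1.63 ± 0.43, adjusted p = 0.0251). Insr, the insulin receptor, and the cell cycle factor E2f5 were lower there as well, at -1.16 ± 0.32 and -1.14 ± 0.31. As with the 9 members, the share called at leptotene/zygotene against day 7 is near that of all genes.

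The genes whose log2 CPM ran most alike over the 10 libraries were ranked by Pearson's r among 15973 others of at least 1 CPM on average. The libraries fall into stages, so that a high r says mainly that stage levels were in the same order; it is given as a description. Nearest to Lin28a were Nlrp4c (r = 0.985), Rspo2 (0.984) and Pramef12 (0.984), and to Trim71 Glis3 (0.987), Vps13c (0.98) and D630045J12Rik (0.974). For Lin28b the nearest were looser, with Pramel1 at 0.927, Lpar3 at 0.915 and Fam169a at 0.911. Igf2bp1 ran with Nmt2 (0.981), Heatr5a (0.975) and Phf15 (0.97), Igf2bp2 with Rbfox1 (0.996), Lgi3 (0.994) and Bai2 (0.994), and Igf2bp3 with Vash2 (0.996), Ppp2r2b (0.995) and Bcmo1 (0.995). Hmga2 ran with Dcdc2a (0.982), Lamp5 (0.979) and Ankrd33b (0.973), Mycn with Bex2 (0.999), Mcm2 (0.999) and Pygb (0.998), and Arid3a with Ehmt2 (0.982), Tmem248 (0.982) and Camta1 (0.981). No member was among the 3 nearest of another.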

How the data were processed

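Both tables as deposited hold raw counts, read from whole numbers and totals that differ between libraries: reads per gene symbol for RNA, and per 7-base seed for small RNA (4940 seeds). The submitters' processing notes name HTSeq 0.6.1, edgeR 3.6.8, BWA 0.7.8, Bowtie 0.12.7 and the mm9 genome, with the role and settings of each not given in the sources used here. The use of strand in counting is unknown, so antisense or overlapping genes may share reads. The 5 summary rows of HTSeq held 44.7% to 64.5% of reads per RNA library and entered neither library sizes nor tests.

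The 9 genes and the lists were chosen with earlier results of these data known. Named from each list were up to 4 called genes per comparison with the largest change and at least 10 CPM in the higher stage. Nr6a1 and Arid3b were named besides, as genes that went the other way. For likeness, the 3 highest r were named (prior count 2). A pair of list genes that this rule names is not reported here. Features were kept by filterByExpr (minimum count 10), scaled by TMM and fitted in edgeR 4.0.16 (R 4.3.3), all 10 libraries of an assay together with a term per stage, leaving 5 residual degrees of freedom. Tests were two-sided quasi-likelihood F tests, adjusted by Benjamini-Hochberg at 0.05; SE was taken as the size of the log2 fold change divided by the root of F. The script was also run on simulated data with the same spread for all genes and stages, unlike these libraries, and no result here rests on it. Intervals and floors cover counting error only. Replicate pairs differed by more than sampling noise (chi-square per degree of freedom 4.41 or more). Levels are not compared between genes, as transcript lengths were not used here, nor were 3′ target sites. Alternatives were DESeq2 1.42.0, other scalings, no filter, a replicate block, only the stages compared, and each library left out; leaving out both leptotene/zygotene libraries was chosen after seeing the data.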

Additional observations from a re-analysis of the deposited data

How the results depend on the processing

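With 2 libraries a stage, counts of calls between testis stages depended on the setting, while at leptotene/zygotene against day 7 the members called stayed within 1.5 times of 8. RNA genes called went from 0 to 79 at day 3 against day 1, 252 to 1026 at day 7 against day 3 and 567 to 1615 at day 7 against day 1 with DESeq2; to 437 (no filter) at day 7 against day 3; to 1019, 6798 and, at pachytene against leptotene/zygotene, 930 with only the stages compared; and to 691 and 1258 without the leptotene/zygotene libraries. Leaving out a library gave 0 to 35, 0 to 635, 0 to 1143 and, at the last step, 2077 to 5073 genes. Members called at day 7 against day 3 were 6 (DESeq2), 5 (no filter), 4 (only the stages compared) and 4 (without leptotene/zygotene), and 0 to 4 without a library. At day 7 against day 1 they were 5, 8 (only the stages compared) and 5 (without leptotene/zygotene), and 0 to 5. At pachytene against leptotene/zygotene they were 3 (DESeq2), 2 (median-ratio factors), 0 (plain library sizes) and 0 (only the stages compared), and 0 to 4. Small RNA seeds called were 83, 153, 205 and 27 with DESeq2 (day 3 against day 1, day 7 against day 3, day 7 against day 1, pachytene against leptotene/zygotene), 69 and 159 (median-ratio factors, both day 7 comparisons), 49 (plain library sizes, day 7 against day 3), 60, 56 and 14 (no filter), 27, 112, 307 and 0 (only the stages compared), and 21, 63 and 158 (without leptotene/zygotene). The cause of these differences was not tested.
Leaving out a small RNA library gave 0 to 29, 6 to 85, 0 to 180, 233 to 489 and 0 to 5 seeds in the order of the comparisons. The replicate numbers are tied to no animal, litter or day in the labels. Same-numbered libraries deviated from their stage with correlations of -0.108 to 0.641 (RNA) and -0.132 to 0.159 (small RNA) over 10 pairs of stages. The main fit treated them as unpaired. In leptotene/zygotene and pachytene, RNA replicate 1 held 63.3% and 64.5% of reads in the summary rows, the other RNA libraries 44.7% to 51.8%. Whether same-numbered libraries share more than a number was not tested. With the replicate block the members called at pachytene against leptotene/zygotene were 2, Arid3a being called as well (-1.19, adjusted p = 0.047), and Lin28b was called at day 7 against day 1 (2.18, 0.0473); the block changed no other call of a member or of the 4 seeds.

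Directions turned only for differences that were not called. At pachytene against leptotene/zygotene Hmga2, at -0.002, was 0.109 (upper-quartile factors), 0.571 (plain library sizes), 0.011 (no filter), 0.000735 (replicate block) and 0.146 (only the stages compared), and Trim71 was 0.161 (plain library sizes). miR-202-3p was there 0.138 (DESeq2), 0.0845 (median-ratio factors), 0.252 (plain library sizes) and 0.0353 (replicate block). At day 7 against day 1, DESeq2 and median-ratio factors both gave -0.199 for let-7 and -0.256 for miR-99/100. When a library was left out, log2 changes at day 3 against day 1 ran from -0.551 to 0.0795 (Igf2bp1) and -1.68 to 0.139 (Trim71). At pachytene against leptotene/zygotene they ran from -0.697 to 1.26 (Lin28a), -0.101 to 1.71 (Lin28b, called without leptotene/zygotene replicate 1), -0.216 to 1.32 (Igf2bp2), -0.169 to 0.164 (Hmga2), -1.55 to 0.313 (Trim71), -1.02 to 1.09 (Mycn), -0.14 to 0.657 (miR-125), -0.157 to 1.07 (miR-99/100) and -0.601 to 9.70 (miR-202-3p, where the remaining library held 0 counts). At day 7 they ran from -0.00884 to 0.522 (miR-202-3p, against day 3) and -0.0318 to 0.347 (miR-99/100, against day 1). A library left without its replicate was assumed to vary like the other stages. Depth limits Hmga2 on day 7 and Mycn in spermatocytes, which rest on a few counts a library.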
